A study of Mus musculus with 27 samples.

Results

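The arrays described here are the 2 of day 8 and the 2 of day 10 from the control arm of a time course of mouse embryonic stem cell differentiation, 4 of 27 arrays in all. They were chosen by their titles, day 10 against day 8, as the control groups whose replicates were closest to each other. The cells were of the AB2.2 mouse embryonic stem cell line and carried a lentivirus encoding both eGFP, a green fluorescent marker, and a short hairpin RNA (shRNA), which lowers the messenger RNA it matches. In the control arm the shRNA was directed against firefly luciferase, a gene absent from mouse cells, and in the other arm of the study against Sox17, a transcription factor of endoderm. All cells were sorted by flow cytometry for the marker and differentiated as embryoid bodies, which were started in hanging drops and plated once 4.5 days had passed, so that both groups had been in plates for several days. The series asks how Sox17 acts through Hhex and Cer1 on heart mesoderm. The comparison of day 10 with day 8 in the control arm asks what the untargeted cells still change at the end of the culture.

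Embryoid bodies form derivatives of all germ layers side by side. Extraembryonic endoderm at their surface resembles the visceral endoderm of the yolk sac, which takes up nutrients and secretes serum proteins such as alpha-fetoprotein and the apolipoproteins before the liver exists. Heart muscle cells arise from cardiac mesoderm and assemble sarcomeres under transcription factors such as Mef2c and myocardin, while fibroblast-like mesenchyme lays down collagens that lysyl oxidase cross-links.

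The deposited values are log2 expression levels, so that a difference of 1 is a change of 2-fold, and each gene is represented by 1 probe set. Values ran from 2.66 to 14.5, and 13297 genes were tested, those that exceeded 5.53, the overall median, on 2 or more of the 27 arrays. Replicates correlated at 0.997 at day 8 and 0.998 at day 10 across genes, and arrays of day 8 correlated at 0.992 to 0.993 with those of day 10. The SD of the difference between replicates was 0.137 at day 8 and 0.105 at day 10, against 0.183 to 0.343 on the other control days and 0.258 to 0.507 in the Sox17 shRNA arm. The labels call the replicates biological but do not say that they came from separate transductions, so p-values measure the spread between these arrays only. An exact permutation test of 2 against 2 arrays cannot give a two-sided p below 0.333, so the tests rest on a spread shared across genes and groups. The cultures matched their label: Pou5f1, the pluripotency factor, stood at 7.16 on average at day 8 and 7.03 at day 10 against 12.6 at day 0, and Actc1, cardiac actin, at 13.2 and 12.8 against 5.31.

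From day 8 to day 10, 35 genes rose (0.263%) and 12 fell (0.0902%). Together these are 0.353% of the genes tested (limma, all 27 arrays, Benjamini-Hochberg adjusted p below 0.05), and 26 of them, 0.196%, moved at least 2-fold. The genes that rose were led by Igfbp1, a binding protein for insulin-like growth factors, by the yolk sac protein gene Afp, by the smooth muscle actin gene Actg2 and by collagen and other matrix genes. Those that fell were led in size by Tdgf1, a Nodal co-receptor of the early embryo, and by Smyd1 and Mef2c, regulators of heart muscle. Most genes differed little: the median difference over all genes was −0.0032, the median size 0.0988, and the lowest and highest percentiles of genes began at −0.58 and 0.67. In all 47 called genes the day 10 arrays lay wholly above or below those of day 8, as did 58.8% of all genes. Of 52 other probe sets of the called genes 47 gave the same sign.

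The number of genes called depended on which arrays gave the spread. Fitted with the 14 control arrays alone, where the median SE was 0.128 instead of 0.161, 404 genes passed (3.04%), 224 of them higher at day 10 (1.68%) and 180 lower (1.35%), and these included all 47. Of the 404, 69 (0.519%) were at least 2-fold apart. With only the 4 arrays, 2137 genes passed (16.1%), but these groups were picked for their small spread, and that fit rests on it. The control-arm fit also draws part of its spread from these 2 groups and leaves out the Sox17 shRNA arm, whose replicates lay further apart. Its adjusted p-values are therefore lenient too, in part. Without the first or the second day 8 array the fit of all arrays called 8 and 7 genes, and without the first or the second day 10 array 7 and 6; the lone array left in a group is then taken to vary like those of the other groups. Igfbp1, Clca3a1, Actg2 and Islr passed in all 4 of these fits, and the other 43 were lost in at least 1, while every one of the 47 kept its direction. The kept direction was fixed in advance, since the groups of all 47 did not overlap. Clca3a1 exceeded the overall median only on day 10 arrays, so it was tested only because of the day on which it was high. Serpinb6b, Gdf10 and Trp63 exceeded it on the control day 10 arrays, and Lox, Mgp, Col9a2 and Pcp4l1 on those of both arms. Macc1 and Cck did so on the control day 8 arrays. None of them exceeded it in the mean of another control day or on the other arrays of days 8 and 10. By these values they too entered the test through the day on which they were high. Sox17 shRNA arrays before day 8 are not considered here. In what follows a gene rose or fell if it passed in the fit of all 27 arrays, and genes that passed in the control-arm fit alone are given with their values and, for the larger differences, mostly with that fit's adjusted p. Those genes are named in order of the size of their difference, a choice made after their values were seen.

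**Figure D1:**
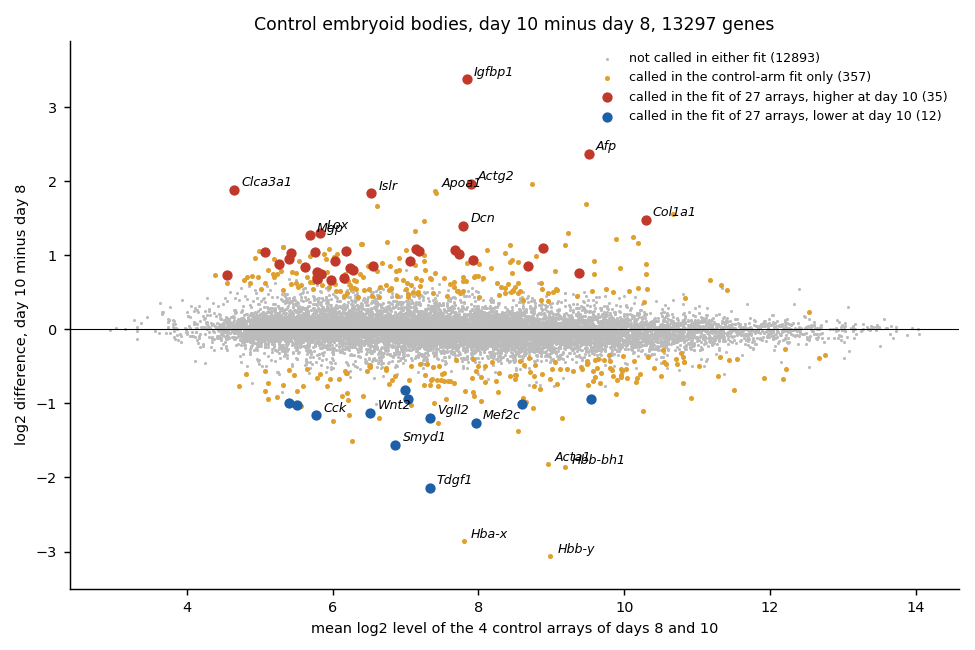
Each point is 1 of 13297 genes, with the mean log2 level of the 4 control arrays on the horizontal axis and the log2 difference, day 10 minus day 8, on the vertical axis. Red and blue points are the 35 genes that rose and the 12 that fell in the fit of 27 arrays, and orange points passed in the control-arm fit only. Igfbp1 stands highest at 3.38, and the embryonic globin genes Hbb-y and Hba-x stand lowest without a call in the fit of 27 arrays.

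Igfbp1 showed the largest rise. It encodes a secreted protein that binds insulin-like growth factors and is made in quantity by liver. It stood at 6.31 and 5.99 at day 8 and at 9.57 and 9.49 at day 10. The day 10 arrays lay far above those of day 8, which in turn lay above every earlier day, where the means were 3.79 to 4.05. The rise was 3.38 ± 0.23 (SE), or 10.4-fold, with adjusted p = 4.12e-07, and at most 5.06e-05 without any 1 of the 4 arrays.

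Afp, alpha-fetoprotein, the main serum protein of the yolk sac and fetal liver, stood at 8.59 and 8.06 at day 8 and at 10.70 on both day 10 arrays. The replicates of day 8 differed by far more than those of day 10, and the groups did not overlap. The rise was 2.37 ± 0.48 (SE), or 5.17-fold (adjusted p = 0.038, and 0.250 to 0.438 without 1 of the 4 arrays). Its other 2 probe sets above the filter differed by 2.08 and 2.17, and 2 below the filter by 0.05 and 0.30.

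Afp was the only 1 of 19 tested yolk sac and visceral endoderm genes to pass in the fit of 27 arrays. In the control-arm fit 9 passed, all higher at day 10. The median difference of the list was 0.44, 17 of 19 members were higher at day 10, and in all 17 the day 10 arrays lay above those of day 8, as in 28.4% of all genes. After Afp the largest differences were those of apolipoproteins A and of plasma carriers. Apoa1, the main protein of high-density lipoprotein, stood at 6.76 and 6.17 at day 8 and at 8.38 and 8.29 at day 10, a difference of 1.87 ± 0.59 (SE; adjusted p = 0.344, and 1.43e-04 in the control-arm fit). Apoa2, a second protein of that particle, differed by 1.85 (6.72 and 6.26 against 8.28 and 8.39, control-arm adjusted p = 1.15e-05). For both genes the gap between days was over 3 times the gap between the day 8 replicates. Ttr, transthyretin, the carrier of thyroid hormone, differed by 1.56 ± 1.26 (SE; 10.36 and 9.42 against 11.46 and 11.44). Its adjusted p was 0.9999 in the fit of 27 arrays and 5.39e-04 in the control-arm fit. The control mean of Ttr had been 11.10 at day 6 and was 9.89 at day 8, so day 10 followed a lower day 8 pair. Rbp4, the plasma carrier of retinol, differed by 1.25 (9.56 and 9.43 against 10.73 and 10.77), with control-arm adjusted p = 2.75e-04. Apom, Spp2, Apoc2 and Apoe, further secreted proteins, differed by 1.07, 0.95, 0.92 and 0.43 (control-arm adjusted p 0.0354, 5.18e-04, 0.0227 and 0.0253).

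The proteins of nutrient uptake gave smaller differences. Cubn, cubilin, differed by 0.26, Amn, its membrane partner, by 0.36, Lrp2, megalin, by −0.24, and Dab2, their adaptor, by 0.40, and none of the 4 passed in either fit. Hnf4a, a transcription factor of visceral endoderm and liver, differed by 0.26 (control-arm adjusted p = 0.29). Alb, albumin of mature liver, stayed between 4.84 and 5.03 on the 4 arrays, below the median of all values. The mean level of the 19 genes was 7.69 and 7.37 on the day 8 arrays and 8.32 and 8.33 on those of day 10, so that the second day 8 array was the lowest. In bulk RNA, more cells of a type and more RNA per cell cannot be told apart.

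The 250 bases before the start sites of the yolk sac genes were searched for GTTAAT, the core of the sequence bound by the HNF1 factors of liver and visceral endoderm, on either strand (RefSeq, mouse build GRCm38.p6). Windows on 1 chromosome were left out for the list but not for the background, and Ttr is among the genes without a window. Of the 27 genes of the list 22 kept an entry, and 9 of these held a match. That is 9 of their 28 windows, since a gene can have several start sites, against 6.43% of all 32851 such windows. Of the 19 tested genes 17 kept an entry and 6 held a match. The windows of the genes that rose, Igfbp1 and Afp, are shown because these genes had the largest rises and both held a match, in capitals, with Apoc2 as another gene with a match and Apoa1, the list's largest difference after Afp, without one. Igfbp1, which is in no list, lies at chr11:7197537-7197786 on the plus strand with the match beginning 56 bases before the start, Afp at chr5:90490464-90490713 on the plus strand with the match 105 bases before it, Apoc2 at chr7:19677942-19678191 on the minus strand with the match 89 bases before it, and Apoa1 at chr9:46228380-46228629 on the plus strand.
Igfbp1: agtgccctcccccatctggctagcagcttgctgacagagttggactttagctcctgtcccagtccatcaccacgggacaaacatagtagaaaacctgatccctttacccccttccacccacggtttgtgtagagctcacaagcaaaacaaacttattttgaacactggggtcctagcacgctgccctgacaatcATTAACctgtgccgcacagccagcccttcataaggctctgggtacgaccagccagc
Afp: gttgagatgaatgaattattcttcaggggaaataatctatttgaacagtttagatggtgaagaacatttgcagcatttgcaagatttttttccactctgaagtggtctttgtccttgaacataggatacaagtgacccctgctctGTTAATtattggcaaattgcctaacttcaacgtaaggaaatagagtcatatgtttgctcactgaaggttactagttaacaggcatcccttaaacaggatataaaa
Apoc2: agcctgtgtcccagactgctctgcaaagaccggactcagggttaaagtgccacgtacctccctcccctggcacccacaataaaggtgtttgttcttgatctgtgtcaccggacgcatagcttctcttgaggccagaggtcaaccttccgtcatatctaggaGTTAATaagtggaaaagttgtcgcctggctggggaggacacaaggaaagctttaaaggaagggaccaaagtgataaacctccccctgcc
Apoa1: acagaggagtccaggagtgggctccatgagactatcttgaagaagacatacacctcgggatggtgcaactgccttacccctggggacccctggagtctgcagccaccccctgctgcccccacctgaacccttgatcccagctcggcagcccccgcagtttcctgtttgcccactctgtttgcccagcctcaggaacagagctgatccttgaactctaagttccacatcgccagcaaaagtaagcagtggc
A match describes these letters only. Apoa2, Rbp4, Apom and Spp2 held none in their windows, while Alb, which did not differ, held 1 beginning 32 bases before its start.

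**Figure D2:**
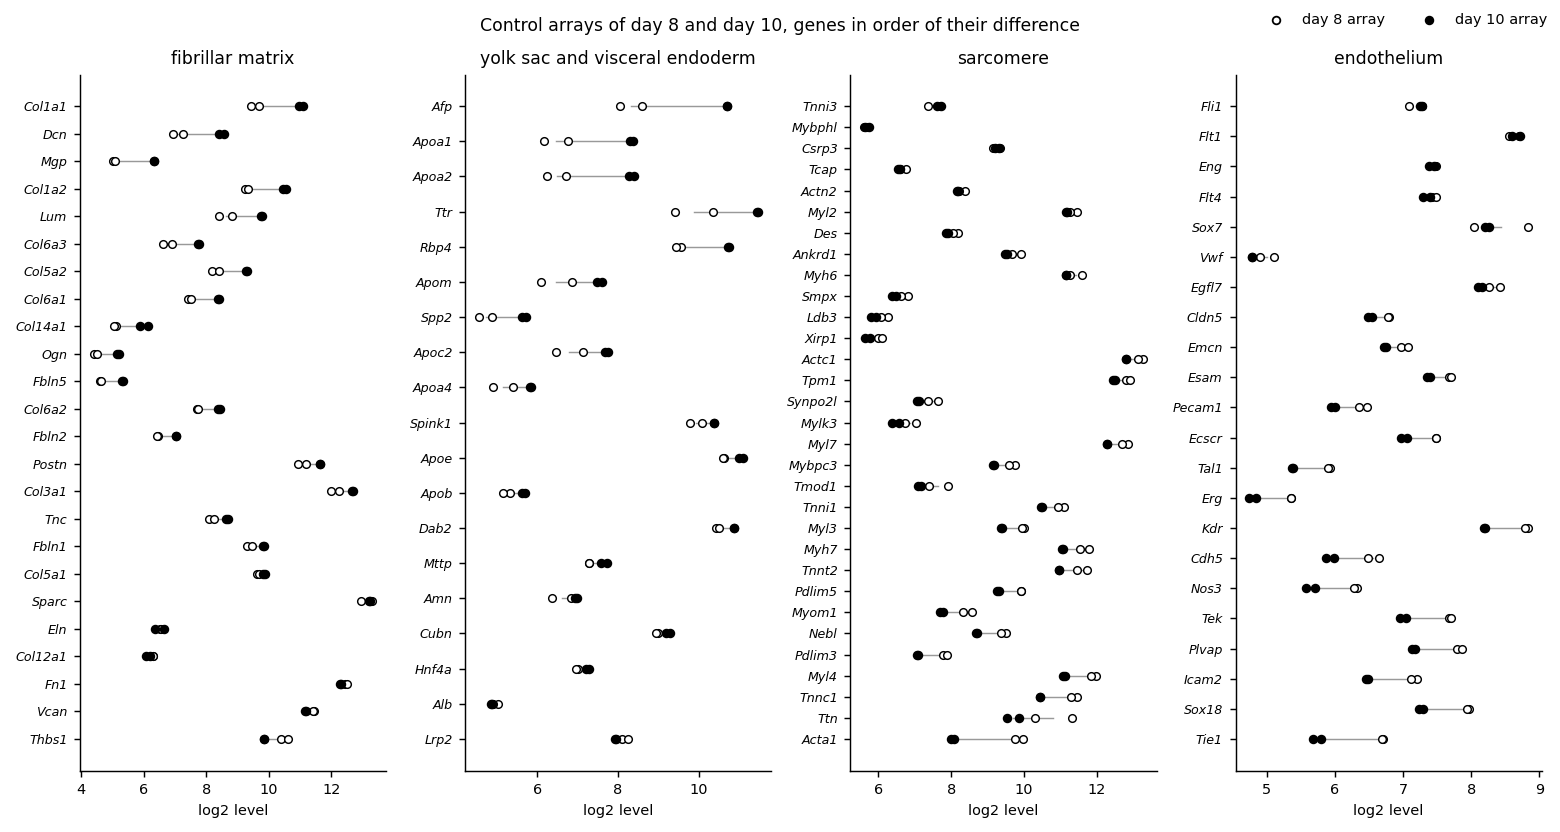
Log2 level of each tested gene of 4 groups (fibrillar matrix, yolk sac and visceral endoderm, sarcomere, endothelium) on the 2 day 8 arrays (open points) and the 2 day 10 arrays (filled points), with a line between the means and genes in order of their difference. Day 10 lies to the right of day 8 for 17 of 19 yolk sac genes and to the left for 28 of 31 sarcomere genes by the means.

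Of 24 tested genes of the fibrillar matrix, 4 rose and 0 fell, and 20 did not pass, while in the control-arm fit 13 were higher and 1 lower. The median difference was 0.64, with 19 of 24 above 0. Col1a1, the alpha 1 chain of collagen I, stood at 9.42 and 9.68 at day 8 and at 11.09 and 10.98 at day 10. The groups were well apart, and the rise was 1.48 ± 0.25 (SE), or 2.79-fold (adjusted p = 0.0134, and 0.0663 to 0.274 without 1 of the 4 arrays). Its partner Col1a2 differed by 1.22 (9.23 and 9.33 against 10.54 and 10.46), with adjusted p = 0.084 in the fit of all arrays and 4.51e-04 in the control-arm fit. A second probe set of Col1a1 above the filter differed by 0.24.

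Dcn, decorin, a small proteoglycan that coats collagen fibrils, rose by 1.40 ± 0.25 (6.93 and 7.25 against 8.56 and 8.42, adjusted p = 0.0169). Mgp, matrix Gla protein, an inhibitor of calcification, rose by 1.27 ± 0.27 (5.02 and 5.08 against 6.32 and 6.33, adjusted p = 0.048). Col6a1, a chain of the beaded collagen VI, rose by 0.94 ± 0.16 (7.41 and 7.52 against 8.39 and 8.41, adjusted p = 0.0169). In these 3 genes the day 10 replicates lay within 0.15 of each other and well above both day 8 arrays, and each lost its call without any 1 of the 4 arrays (adjusted p up to 0.368, 0.511 and 0.29). Of the other collagen VI chains, Col6a3 stood at 6.60 and 6.91 against 7.77 and 7.75, and Col6a2 differed by 0.69. The proteoglycan gene Lum differed by 1.14, Col5a2 by 0.99 and Col14a1 by 0.93, and these 5 passed in the control-arm fit (adjusted p 4.98e-04 to 0.0143). Col3a1 and Postn, high at day 8 already, differed by 0.55 and 0.56 and passed in neither fit. Thbs1, an adhesive glycoprotein, went the other way, from 10.40 and 10.60 to 9.84 and 9.85 (−0.65, control-arm adjusted p = 0.0122).

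Bgn, Col9a2, Col8a2, Ddr2 and Islr, which also rose, are in no list and are described here for their known roles, a grouping made after their values were seen. Bgn, biglycan, the close relative of decorin, rose by 1.10 ± 0.18 (8.41 and 8.27 against 9.43 and 9.44, adjusted p = 0.0086). Col9a2, a collagen of cartilage, rose by 0.88, Col8a2, a short-chain collagen, by 0.73, and Ddr2, a receptor tyrosine kinase for fibrillar collagen, by 0.69 (adjusted p 0.0134, 0.0481 and 0.048). Islr, a secreted leucine-rich repeat protein of mesenchymal cells, rose by 1.84 ± 0.20 from 5.43 and 5.78 to 7.42 and 7.48 (adjusted p = 1.35e-04, and at most 0.0101 without 1 of the 4 arrays). The day 10 values of Islr lay within 0.06 of each other, over 1.6 above the higher day 8 array. Among 19 tested enzymes of matrix cross-linking, processing and turnover, Lox alone rose, by 1.30 ± 0.22 (5.14 and 5.20 against 6.45 and 6.50, adjusted p = 0.0115), and the list median was 0.12. Lox, lysyl oxidase, cross-links collagen and elastin. Pcolce, an enhancer of procollagen cleavage, was also higher in the control-arm fit (0.88, adjusted p = 3.94e-04), as were Mmp2 (0.50, adjusted p = 0.0249) and Loxl3 (0.43, adjusted p = 0.0488). Laminins and collagen IV of basement membranes had a median of 0.00 over 20 genes, with 0 called in the fit of 27 arrays, and Lama2 (0.64) and Fbln2 (0.60) passing in the control-arm fit.

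Smooth muscle genes did not move together. Actg2, the gamma actin of visceral smooth muscle, rose by 1.97 ± 0.19, or 3.91-fold, from 6.82 and 7.01 to 8.86 and 8.89 (adjusted p = 2.19e-05, and at most 0.00189 without 1 of the 4 arrays). The other 15 tested members did not pass. Lower in the control-arm fit were 3, Cnn1, calponin (7.96 and 7.81 against 6.89 on both day 10 arrays, −0.99, adjusted p = 2.75e-04), Tagln, transgelin (−0.65, adjusted p = 0.0101), and Cnn2 (−0.39, adjusted p = 0.0147). The list median was −0.16, with 12 of 16 members lower.

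The other genes that rose had varied roles. Clca3a1, a secreted protein of the calcium-activated chloride channel regulator family, rose by 1.89 ± 0.16 from 3.75 and 3.66 to 5.58 and 5.60 (adjusted p = 3.85e-06, and at most 3.63e-04 without 1 of the 4 arrays). Its day 8 levels lay near the low end of all values, where folds are understated. Clca3a1 exceeded the filter only on the day 10 arrays of both arms, so those levels alone brought it into the test. Its other probe set, below the filter, differed by 0.35. Ccdc3, a secreted protein, rose by 1.08 ± 0.14 (6.71 and 6.49 against 7.67 and 7.69), with adjusted p = 0.00135, and 0.0101 to 0.0613 without 1 of the 4 arrays, which lost the call in 1 case. Transcription factors that rose were Bcl11b, a zinc finger protein (1.06, adjusted p = 0.0169), Foxp2, a forkhead repressor (1.02, 0.0246), Nfia, nuclear factor I (0.93, 0.0127), Ebf3 (0.86, 0.0205), Trp63, the p53 relative of stratified epithelia (0.84, 0.0284) and Tshz3 (0.68, 0.0491). Of these, Foxp2 stood at 7.19 and 7.25 at day 8 and 8.23 and 8.25 at day 10, and its mean had been higher on each later day since day 0 (4.71). Other probe sets above the filter differed by 0.15 to 0.64 for Bcl11b and 0.17 to 1.31 for Foxp2. Those of Nfia differed by 0.50 and 0.59, and those of Ebf3 by 0.94 and 0.98. Trp63 was the only called member of 11 tested surface ectoderm genes, of which 6 were lower at day 10 (median −0.008). In the control-arm fit 2 of that list were lower, among them Sfn (−1.20). The other probe sets of Trp63, below the filter, differed by 0.02 to 0.17. The probe set used stood at 5.04 and 5.36 at day 8 and exceeded the filter at day 10, at 5.99 and 6.09. It did not exceed the filter in any earlier control mean or on the Sox17 shRNA arrays of days 8 and 10. By these values, its control day 10 levels brought it into the test.

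Signalling and membrane genes among those that rose were Gdf10, a TGF-beta family ligand (0.95, adjusted p = 0.0115), Vcam1, an adhesion molecule (0.76, 0.0246), Pla2g4a, the cytosolic phospholipase A2 (0.92, 0.0205), Pltp, the phospholipid transfer protein (0.76, 0.0115), Nrn1, neuritin (0.83, 0.0354), and Igdcc4, an immunoglobulin superfamily receptor (0.86, 0.0481). Lmcd1, a LIM protein that can repress Gata factors, rose by 1.04 (0.03), and Tmem45a and Serpinb6b, a membrane protein and a protease inhibitor, by 1.04 each (0.00435 and 0.00255). Serpinb6b (4.56 and 4.53 against 5.56 and 5.63) and Gdf10 (4.94 and 4.90 against 5.81 and 5.94) exceeded the filter on the control day 10 arrays. Neither did so at day 8, in an earlier control mean or on the Sox17 shRNA arrays of days 8 and 10. By these values, the group where they were high brought both into the test. The long noncoding RNA gene Miat rose by 1.05 ± 0.16 (6.72 and 6.58 against 7.68 and 7.74, adjusted p = 0.00391). For Miat the groups did not overlap, but the call was not kept in every fit without 1 array. A second Miat probe set above the filter did not rise, with a mean of 5.25 on both days (−0.0056). Pantr1, Pcp4l1 and Kank4 rose by 0.81, 0.78 and 0.67.

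For 33 of the 35 genes that rose, day 10 was the highest of the 7 control days. The exceptions were Pltp, at 10.90 on average at day 0 against 9.76 at day 10, and Tmem45a, at 6.45 at day 2 against 6.27. The 35 genes were selected for day 10 lying above day 8, so this count is partly built in. The share among all genes is not given, so the count cannot show that these genes stand out. Clca3a1 was even tested only because of its day 10 levels, as were, by the values described above, Serpinb6b, Gdf10, Trp63, Lox, Mgp, Col9a2 and Pcp4l1. Igfbp1 stood furthest above its highest earlier day (3.38), followed by Afp (2.37), Actg2 (1.97), Islr (1.84), Col1a1 (1.48), Dcn (1.40), Lox (1.30), Clca3a1 (1.28), Mgp (1.27) and Bgn (1.10). The genes that fell had mostly been at their highest shortly before: 8 of the 12 at day 8, 3 at day 6 and 1, Tdgf1, at day 0. These 12 were selected for day 8 lying above day 10, which favours day 8 as the highest day. Tdgf1 was also the only 1 of the 12 that was at its lowest of all control days on day 10. The others were still above their lowest earlier level, by 0.45 (Thbs4) to 4.86 (Sh3bgr).

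**Figure D3:**
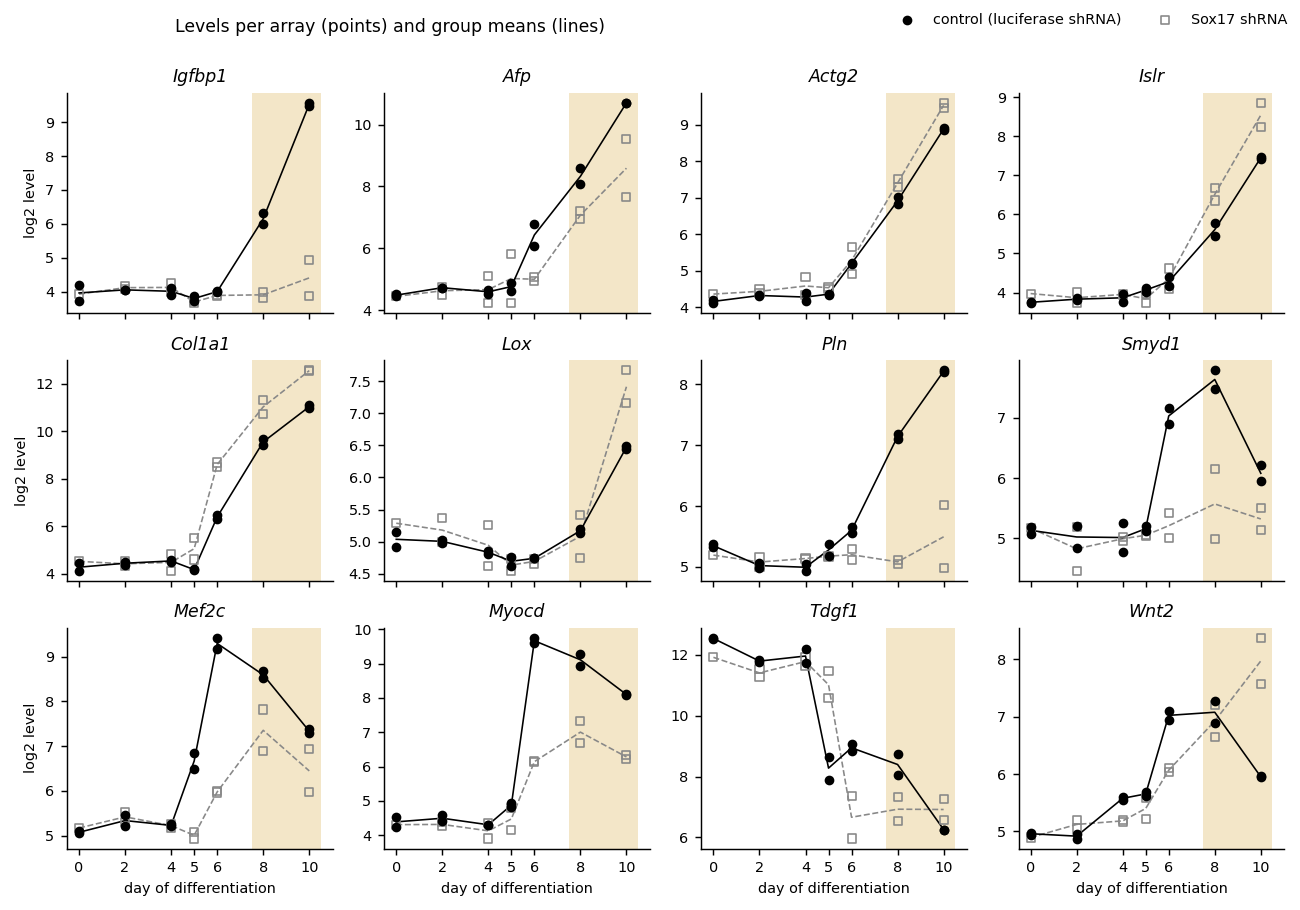
Log2 level of 12 genes on every array (points) and the group means (lines) against the day of differentiation, in control cells (filled circles, solid line) and in Sox17 shRNA cells (open squares, dashed line), with days 8 and 10 shaded. Igfbp1 climbs to 9.53 at day 10 in control cells and stands at 4.40 in Sox17 shRNA cells, while Smyd1, Mef2c and Myocd pass their control peak at day 6 or day 8.

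Of 20 tested transcription factors and co-factors of heart progenitors and heart muscle, 3 fell and 0 rose, and the same 3 passed in the control-arm fit. Smyd1, a muscle histone methyltransferase needed for heart development, fell by 1.56 ± 0.30 (SE), from 7.79 and 7.49 to 6.21 and 5.95 (adjusted p = 0.0246). Mef2c, an early activator of heart muscle genes, fell by 1.26 ± 0.26, from 8.67 and 8.52 to 7.39 and 7.28 (adjusted p = 0.048). Myocd, myocardin, a co-activator of serum response factor, fell by 1.01 ± 0.21, from 9.29 and 8.93 to 8.11 and 8.09 (adjusted p = 0.048). For all 3 the day 10 arrays lay below both day 8 arrays, and all 3 lost the call without any 1 of the 4 arrays (adjusted p up to 0.482, 0.537 and 0.765). Every other probe set of Mef2c and Myocd above the filter, and those of Smyd1, also differed downward, by 0.93 to 1.48, 0.73, and 1.38 and 2.01 on the log2 scale. The other 17 did not pass: Nkx2-5 differed by −0.31, Gata4 by −0.17, Tbx5 by 0.18, Tbx20 by −0.12, Isl1 by 0.07 and Hand2 by −0.07. The list median was −0.09.

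Vgll2 and 3 other genes that fell are in no list and were put together here after their values were seen. Vgll2, a co-factor of TEAD factors, fell by 1.20 ± 0.21 (7.88 and 7.97 against 6.68 and 6.78, adjusted p = 0.017). Sh3bgr, a small protein of heart and skeletal muscle, fell by 0.94 (10.15 and 9.88 against 9.07 on both day 10 arrays, adjusted p = 0.0205), and Itgb1bp2, melusin, a chaperone-like integrin partner of striated muscle, by 0.82 (7.46 and 7.35 against 6.59 and 6.57, adjusted p = 0.00283). The groups did not overlap for any of these 3. Thbs4, a thrombospondin of muscle and tendon, fell by 1.03 (adjusted p = 0.048).

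None of the 31 tested sarcomere genes passed in the fit of 27 arrays, though 28 of them were lower at day 10 and for 27 both day 10 arrays lay below both day 8 arrays, against 30.4% of all genes. At an unadjusted p below 0.05, which 5.42% of all genes reached in limma, there were 13 of the 31, and in the control-arm fit 12 were lower and 0 higher. The median difference was −0.41. Acta1, skeletal actin, also made in the early heart, stood at 9.97 and 9.75 at day 8 and at 8.01 and 8.07 at day 10, a difference of −1.82 ± 0.65 (SE; adjusted p = 0.533, and 4.61e-07 with SE 0.12 in the control-arm fit). Ttn, titin, the spring of the sarcomere, differed by −1.10 (11.33 and 10.30 against 9.87 and 9.55, control-arm adjusted p = 0.0111), with day 8 replicates further apart than those of any other sarcomere gene named here. Tnnc1, cardiac troponin C, differed by −0.92 (11.46 and 11.29 against 10.45 on both), and Tnnt2, cardiac troponin T, by −0.63 (11.73 and 11.46 against 10.96 and 10.97). Myl4 (−0.81), Pdlim3 (−0.76), Nebl (−0.74), Myom1 (−0.71), Pdlim5 (−0.64), Myl3 (−0.59), Mybpc3 (−0.51) and Tpm1 (−0.39), of thick filament, Z-disc and thin filament, complete the 12.

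Members of isoform pairs are given whether or not they passed. Myh7, the slow myosin heavy chain, differed by −0.60 ± 0.53 (SE) and Myh6, its fast partner, by −0.27 ± 0.15. Tnni1, the troponin I of early heart, differed by −0.54 ± 0.35 and Tnni3, the adult form, by 0.14 ± 0.27. Myl7, the atrial light chain, differed by −0.50 ± 0.37 and Myl2, the ventricular one, by −0.19 ± 0.48. None of the 6 passed in either fit.

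Pln, phospholamban, restrains the calcium pump of the heart's reticulum. It stood at 7.10 and 7.18 at day 8 and at 8.23 and 8.20 at day 10, a rise of 1.07 ± 0.20 (SE), or 2.10-fold (adjusted p = 0.0248, and 0.183 to 0.398 without 1 of the 4 arrays). Its other 2 probe sets differed by 1.26 and 1.47. It was the only 1 of 14 tested genes of calcium handling and pacemaking to pass in either fit. The release channel gene Ryr2 differed by −0.42, the exchanger gene Slc8a1 by −0.51 and the calcium channel gene Cacna1c by −0.40, and the list median was −0.11. Among 17 other heart muscle genes 0 passed, and Nppb, a natriuretic peptide (−0.69), and Srl, sarcalumenin (−0.59), were lower in the control-arm fit (adjusted p 0.0103 and 0.0256).

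The step before showed the sarcomere genes going the other way. From day 6 to day 8 all 31 were higher, 20 of them past the test (1107 genes passed in that comparison, 8.33%), with a median of 0.97. Both steps use the day 8 arrays, so a high or low day 8 value enters them with opposite sign. Fibrillar matrix genes were higher at both steps, by a median of 0.75 with 12 of 24 past the test from day 6 to day 8 and of 0.64 from day 8 to day 10. Yolk sac genes had medians of 0.03 and 0.44. From day 6 to day 8, 751 genes rose (5.65%) and 356 fell (2.68%), a split that turned to 567 and 753 when arrays were centred on their medians, which shifts every difference of that step by −0.0944. Without the first or the second day 8 array, 472 and 262 genes passed at that step. Centring shifts the differences of day 10 minus day 8 by 0.0096.

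Hbb-y and Hba-x, embryonic globin genes, had the largest differences downward of the 13297 genes, without passing in the fit of 27 arrays. Hbb-y stood at 10.73 and 10.30 at day 8 and at 7.47 and 7.43 at day 10, a difference of −3.06 ± 1.22 (SE; adjusted p = 0.693, and 0.00107 with SE 0.45 in the control-arm fit). Hba-x differed by −2.86 (9.53 and 8.93 against 6.38 and 6.35, control-arm adjusted p = 5.54e-04) and Hbb-bh1 by −1.86 (10.49 and 9.75 against 8.33 and 8.18, control-arm adjusted p = 0.0111). These genes encode the globins of the first, yolk sac wave of red cells. All 3 had both day 10 arrays below both day 8 arrays, and the first day 8 array was the higher of its pair for each. Regulators of red cells moved little: Gata1 differed by −0.15, Klf1 by −0.15 and Epor, the erythropoietin receptor, by 0.07. Of 11 red cell genes 3 passed in the control-arm fit, 3 had an unadjusted p below 0.05 in the limma fit of 27 arrays, and the median difference was −0.20.

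Endothelial genes were lower at day 10. None of the 22 tested passed in the fit of 27 arrays, while 20 were lower at day 10, and 9 of them passed in the control-arm fit (5 at an unadjusted p below 0.05 in the limma fit of 27 arrays). The median difference was −0.45, with both day 10 arrays below both day 8 arrays for 19, as in 30.4% of all genes. Tie1, an endothelial receptor tyrosine kinase, stood at 6.70 and 6.69 at day 8 and at 5.68 and 5.80 at day 10 (−0.96 ± 0.35, adjusted p = 0.58, control-arm adjusted p = 0.00116). Its relative Tek, the angiopoietin receptor, differed by −0.68 (7.67 and 7.70 against 7.05 and 6.96), and Kdr, the main receptor for VEGF, by −0.61 (8.83 and 8.79 against 8.20 and 8.19). The transcription factor gene Sox18 differed by −0.69, Icam2 by −0.68, Plvap by −0.68, Nos3 by −0.66 and Erg by −0.56, and Tal1, shared with blood progenitors, by −0.54. The mean level of the list was 7.17 and 7.21 at day 8 and 6.77 on both day 10 arrays. Among platelet genes 0 of 9, and among macrophage genes 0 of 12, passed in the fit of 27 arrays, with macrophage genes at a mean level of 5.40 to 5.57 on the 4 arrays.

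Tdgf1, a co-receptor for the ligand Nodal that marks embryonic stem cells and early epiblast, showed the largest fall. It stood at 8.74 and 8.05 at day 8 and at 6.26 on both day 10 arrays. The day 8 replicates were 0.69 apart, and the lower of them was still far above day 10. The fall was 2.14 ± 0.39 (SE) on the log2 scale, or 4.40-fold (adjusted p = 0.0205, and 0.0663 to 0.471 without 1 of the 4 arrays). The other 22 tested pluripotency genes did not pass. Pou5f1 differed by −0.12 and Nanog by 0.28, both with overlapping groups, and the second day 8 array was the lower of its pair by 1.40 and 0.84. In the control-arm fit Dppa5a was higher (1.31, adjusted p = 0.0212), with day 8 values of 9.31 and 7.85 against 9.91 and 9.86, and Klf2 lower (−0.54, adjusted p = 0.0203). None of 18 tested genes of the primitive streak, where mesoderm first forms, passed in the fit of 27 arrays. Lower at day 10 were 14, with a list median of −0.17 against −0.0032 over all genes. In limma 3 reached an unadjusted p below 0.05, as did 5.42% of all genes. Eomes (−1.15), Mixl1 (−0.94), Lhx1 and Mesp1 (both −0.76) and Nodal (−0.56) passed in the control-arm fit (adjusted p 0.00195, 0.00294, 0.0219, 0.0114 and 0.0406).

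Among 25 tested genes of the Wnt pathway, Wnt2 fell and the others did not pass. Wnt2, a ligand made in the early heart field and vessels, stood at 7.27 and 6.89 at day 8 and at 5.96 and 5.94 at day 10, a fall of 1.13 ± 0.21 (SE; adjusted p = 0.0214). Higher in the control-arm fit were 4, the secreted antagonists Sfrp2 (0.90) and Sfrp1 (0.61), the agonist Rspo2 (0.65) and the cyclin gene Ccnd1 (0.55). Cck, the peptide hormone cholecystokinin, fell by 1.16 ± 0.15 (6.52 and 6.19 against 5.36 and 5.04, adjusted p = 8.30e-04). Its call missed the threshold in 1 of the 4 fits without an array (adjusted p = 0.0503). Macc1, a regulator of Met transcription, fell by 0.99 (5.80 and 5.98 against 4.94 and 4.86), and Rassf5, a Ras-binding protein, by 0.94 (7.64 and 7.38 against 6.56 and 6.58).

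Other lists held few or no calls. Genes of mitosis (25) and DNA replication (26) had medians of 0.08 and 0.04 and 0 calls in both limma fits, with 0 at an unadjusted p below 0.05. Immediate early genes, which respond to serum and handling within the hour, were lower in 12 of 16 cases (median −0.36, 0 calls, 2 at an unadjusted p below 0.05, and Atf3 and Klf2 in the control-arm fit). Neural genes had a median of 0.33 over 15 genes with 0 calls (5 at an unadjusted p below 0.05), and in the control-arm fit Fabp7, a lipid carrier of radial glia, was higher by 1.67 (5.90 and 5.65 against 7.44 and 7.45, adjusted p = 2.52e-05), Nefm, a neurofilament, by 0.99 and Sox1, of neural progenitors, by 0.75, while Stmn2 was lower by 0.93 on the log2 scale. Interferon genes had a median of 0.15, with 0 of 19 called, 3 at an unadjusted p below 0.05 and 4 higher in the control-arm fit. Lists of sterol synthesis, stress, Bmp, Hox and Notch genes held 0 calls in both fits, and 0, 0, 0, 2 and 1 genes at an unadjusted p below 0.05.

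**Figure D4:**
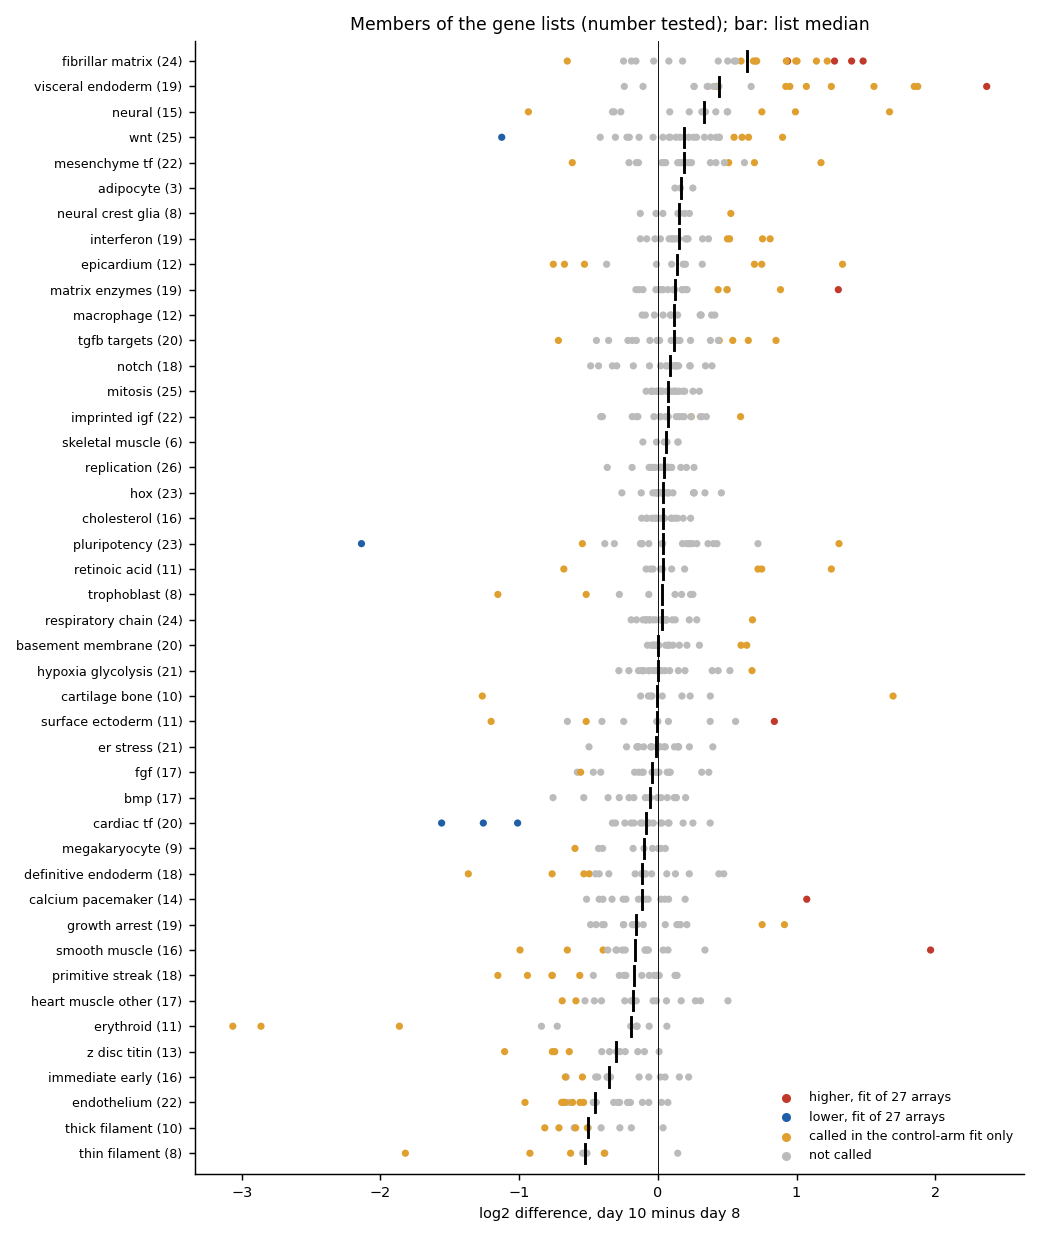
Log2 difference, day 10 minus day 8, of each tested gene of 44 lists, 1 row per list with the number tested in brackets and a black bar at the list median. Colours give the calls: red and blue in the fit of 27 arrays, orange in the control-arm fit only, grey in neither. Fibrillar matrix has the highest median (0.64) and thin filament the lowest (−0.53).

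Sox17, Hhex and Cer1, the genes of the study's title, did not pass at this step. Sox17 stood at 9.91 and 10.29 at day 8 and at 9.99 and 9.98 at day 10 (−0.12 ± 0.80, SE), so that the groups overlapped. Hhex, a homeobox factor of anterior endoderm and vessels, stood at 7.16 on both day 8 arrays and at 6.87 and 6.75 at day 10 (−0.35 ± 0.45). Cer1, which is secreted and binds Nodal, Bmp and Wnt ligands, stood at 4.38 and 4.28 against 3.93 and 3.88 (−0.42 ± 0.60), far below its mean of 9.05 at day 4. The values of Hhex and Cer1 did not overlap between the days, and their control-arm adjusted p was 0.443 and 0.139.

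The Sox17 shRNA arm offers the same 2 days on 4 separate arrays. Sox17 itself stood at 7.90 and 8.54 at day 8 and at 6.71 and 7.19 at day 10 there, below all 4 control arrays. All 35 genes that rose in the control were also higher at day 10 in the Sox17 shRNA arm, against 55% of all genes, and 8 of the 12 that fell were lower there, against 45%. Those 8 changes ran from −0.0097 (Tdgf1), −0.08 (Cck) and −0.11 (Macc1) to −1.20 (Vgll2), and only Vgll2 passed there as lower. In that arm 353 genes were called (2.65%), 286 higher (2.15%) and 67 lower (0.504%), or 229 and 102 when arrays were centred on their medians. Of the 47, 26 passed there in the same direction, 25 of them higher, and Wnt2 passed in the opposite one. Without the first Sox17 shRNA array of day 10, 161 genes were called in that arm. Dcn differed by 2.86 in the Sox17 shRNA arm against 1.40 in the control, Lox by 2.33 against 1.30, Col1a1 by 1.52 against 1.48, Actg2 by 2.12 against 1.97 and Islr by 2.03 against 1.84. The difference between arms was not called for any of these 5, nor for Afp, at 1.52 against 2.37.

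For 18 genes (0.135%) the change from day 8 to day 10 differed between the arms by the test of that difference, in 4 with the control change the higher (0.0301%) and in 14 the lower (0.105%). Of the 47 genes called in the control these were Igfbp1, Wnt2 and Cck. Igfbp1 stood at 4.00 and 3.81 at day 8 and at 4.93 and 3.87 at day 10 in the Sox17 shRNA arm, so that the lowest control array lay above all 4, and the control change was the higher by 2.88 ± 0.33 (SE; adjusted p = 2.72e-04). Wnt2 went opposite ways: it fell in the control and rose in the Sox17 shRNA arm, from 7.20 and 6.64 to 8.37 and 7.57 (1.05, adjusted p = 0.00802), and the changes differed by −2.17 ± 0.30 (adjusted p = 0.00236). Cck, which fell in the control, was already low in the Sox17 shRNA arm at 4.24 and 4.21 and differed there by −0.08 (difference between arms −1.08, adjusted p = 0.0485).

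The other 15 genes did not pass in the control. The lowest adjusted p among them was that of Nell1, a secreted protein of bone formation, which differed by 0.24 in the control and rose by 2.17 in the Sox17 shRNA arm. Ppbp, a platelet chemokine, differed by −0.60 in the control and rose by 2.16, Cpz, a secreted carboxypeptidase, by 0.48 and 2.24, and Ogn, osteoglycin, a matrix proteoglycan, by 0.71 and 2.39. The cardiac myosin gene Myh6 differed by −0.27 in the control, where it stood at 11.60 and 11.26 at day 8, and rose by 0.99 in the Sox17 shRNA arm from 6.27 and 5.99, so that it stayed far below the control. Nkx1-2, a factor of the posterior axis, differed by −0.24 in the control and fell by 2.29 on the log2 scale in the Sox17 shRNA arm. Angptl4 and Brinp1 differed by 0.27 and 0.29 in the control and rose by 1.30 and 1.81. Yolk sac genes had a median of −0.21 in the Sox17 shRNA arm against 0.44 in the control, and 0 of 19 differed between arms by the test. For some of them the Sox17 shRNA replicates lay far apart, so this test could miss differences. Ttr stood there at 11.51 and 8.94 at day 8 and at 11.30 and 7.69 at day 10, and Apoa1 at 7.72 and 5.62 and then 8.04 and 5.67. The SE of the difference between arms was 1.78 for Ttr and 0.84 for Apoa1. Without 1 of the 4 control arrays 6 or 7 genes differed between arms, and without the second Sox17 shRNA array of day 10, 40.

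**Figure D5:**
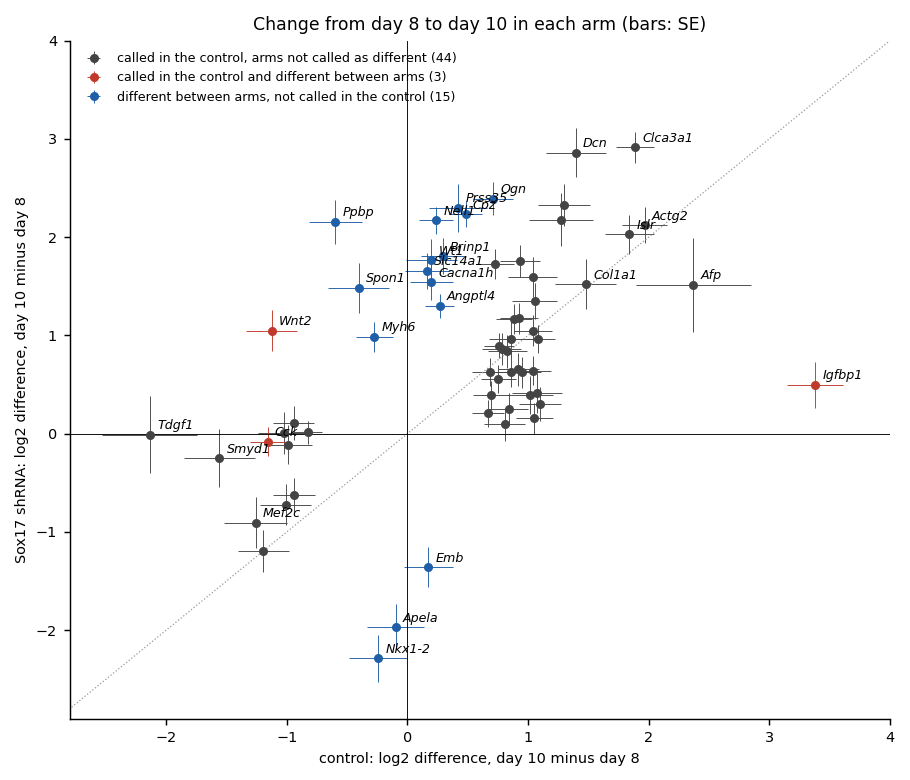
Log2 difference, day 10 minus day 8, in the control arm (horizontal) against the Sox17 shRNA arm (vertical) for the 47 genes called in the control and the 15 others whose change differed between arms, with SE bars and a dotted line of equal change. Igfbp1 lies far right of the line (3.38 against 0.50), and Wnt2 lies where the signs are opposite (−1.13 against 1.05).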

How the data were processed

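RNA extracted with TRIzol and RNeasy from the sorted, differentiated cells was labelled and read on Affymetrix arrays. The deposited values are log2 expression levels made by the authors with RMA, per the submitters' processing notes. RMA quantile-normalizes the arrays, so a difference is read against all genes measured on that array, and low levels are compressed. Which version was used, and whether 1 run covered the 27 arrays, is not given in the sources used here. The values hold no counts, so precision rests on the number of arrays. The 4 arrays compared had medians within 5.50 to 5.56, the range of all 27, and their 3' to 5' control differences lay within 0.465 to 0.537 for actin. The dapX spike-in stood at 8.13 and 7.68 on the day 8 arrays and 7.85 and 7.44 on those of day 10, replicate 1 the higher in both pairs.

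Of 45101 probe sets, 34958 had 1 gene symbol in the platform annotation, 932 several and 9211 none listed there. 0 symbols needed an update against RefSeq GRCm38.p6. Probe sets had to exceed 5.53, the overall median, on 2 or more arrays (23536 did), and a gene was represented by the one with the highest mean over 27 arrays (13297 genes). Means of the 14 groups of arm and day were fitted in limma 3.58.1 (R 4.3.3) with trended variance moderation (13 residual and 4.68 prior degrees of freedom) and two-sided p-values adjusted by Benjamini-Hochberg over all genes. The control-arm fit had 7 and 7.91 degrees of freedom. The fit was tested on simulated data. SE is from the fit. The members and the 44 gene lists were chosen with earlier results of these data known. The rule for named genes was the 20 largest rises and falls that passed, Sox17, Hhex and Cer1, up to 8 members per list that passed, completed families, and the 10 differences between arms of lowest adjusted p. The remaining genes past a threshold, and list members named beyond it, were added after their values were seen. Alternatives were other samples in the fit, moderation, array weights, filters, choice of probe set, centring, replicate blocks and each array left out.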

Additional observations from a re-analysis of the deposited data

Results flagged for a closer look

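The change from day 8 to day 10 differed between the control and the Sox17 shRNA arm by the test of that difference in 18 genes. In 4 the control change was the higher: Igfbp1 (by 2.88), Nkx1-2 (2.04), Apela (1.87) and Emb (1.53). In 14 the control change was the lower: Ppbp (−2.75), Wnt2 (−2.17), Nell1 (−1.93), Spon1 (−1.89), Prss35 (−1.88), Cpz (−1.75), Ogn (−1.68), Wt1 (−1.57), Brinp1 (−1.51), Slc14a1 (−1.49), Cacna1h (−1.34), Myh6 (−1.26), Cck (−1.08) and Angptl4 (−1.03). Wt1, a factor of epicardium and other mesothelium, stood at 5.16 and 5.02 at day 8 and 5.28 and 5.30 at day 10 in the control, and at 5.53 and 5.01 and then 7.37 and 6.71 in the Sox17 shRNA arm. Apela, a peptide ligand of the apelin receptor, stood at 7.05 and 6.68 and then 6.75 and 6.78 in the control, and at 9.15 and 8.52 and then 6.89 and 6.85 in the Sox17 shRNA arm. Spon1, an extracellular matrix protein, differed by −0.41 in the control and by 1.49 in the Sox17 shRNA arm, and Prss35 by 0.42 and 2.30, with day 8 control values of 5.36 and 6.35 on either side of that arm's 5.81 and 5.72. Slc14a1, a urea transporter, and Cacna1h, a T-type calcium channel, differed by 0.16 and 0.20 in the control and by 1.66 and 1.54 in the Sox17 shRNA arm. Emb, embigin, differed by 0.17 in the control and by −1.36 in the Sox17 shRNA arm.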

How the results depend on the processing

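The count of 47 genes became 62 at most without 1 Sox17 shRNA array, 404 with the control arm only, 2137 with the 4 arrays only, 2253 with array weights, 73 with the mean of a gene's probe sets and 89 with every probe set on its own, and 6 to 8 without 1 of the 4 arrays. The count of 26 at least 2-fold apart became 69, 70, 70 (array weights) and 56 (every probe set), and 5 to 36 without 1 array. In the control-arm fit without 1 of the 4 arrays, an alternative chosen after seeing the data, 153, 174, 144 and 132 genes passed, 61, 78, 71 and 65 at least 2-fold apart. The 18 genes that differed between arms became 61 with array weights and 3 with the stricter filter, and 6 to 40 without 1 array. The step from day 6 to day 8 (1107) became 2774 with the control arm only, 4662 with array weights and 1962 with every probe set, and 262 to 1182 without 1 array. The Sox17 shRNA step (353) became 161 to 328 without 1 array. Changed moderation, filter (none or stricter), highest-variance probe set and centring moved the 47 to 32 to 64. None of the 47 changed sign under these settings (41 of them could be fitted with the stricter filter), and with centring 34 passed and 13 did not. Changed moderation leaves the group means as they are, and leaving out 1 array cannot reverse groups that do not overlap, so the sign was fixed there. Signs of named genes that did not pass were not followed.

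With a replicate block (the replicate number within each arm) 67 genes passed, and 2306 (70 at least 2-fold) with a replicate block in the 4 arrays alone. Same-numbered arrays of day 8 and day 10 are not tied by the labels beyond their number. Their deviations correlated at 0.114 over genes, with a single pair of groups to compare, and replicate 1 had the higher dapX spike-in on both days in both arms, whose part in the results was not tested. A pair of arrays per group limits every call.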

Other observations

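Genes outside the described groups also differed by more than 2-fold in the control-arm fit while missing the threshold with all 27 arrays. S100g, a calcium-binding protein of absorptive epithelia, stood at 7.75 and 7.74 at day 8 and at 9.70 and 9.72 at day 10 (1.97, adjusted p = 1.80e-04 in the control-arm fit). Lgals2, a galectin of gut epithelium, stood at 6.55 and 6.49 and then 8.03 and 7.95 (1.47), and Ptn, pleiotrophin, a secreted growth factor, at 9.59 and 9.62 and then 10.76 and 10.77 (1.17). The groups did not overlap for any of the 3. Sema3d, a guidance ligand listed with the epicardial genes, differed by 1.33, and Col9a1, a cartilage collagen, by 1.70. Lower at day 10 were Car3, a carbonic anhydrase of muscle and fat (7.06 and 6.99 against 5.48 and 5.56, −1.51), Hbegf, an EGF receptor ligand (−1.20), and Edn1, endothelin (−1.02).

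In the epicardial list the keratin genes Krt8, Krt18 and Krt19 were lower at day 10 by 0.67, 0.53 and 0.75 on the log2 scale, and Sema3d, Aldh1a2 and Tcf21 higher by 1.33, 0.75 and 0.70. All 6 passed in the control-arm fit and 0 of the 12 tested in the fit of 27 arrays. Among gut endoderm genes, Cdh1 (−0.49), Cldn6 (−0.53), Lhx1 (−0.76) and Cldn4 (−1.37) passed in the control-arm fit, Cldn4 with day 10 values of 8.48 and 7.23. These genes were named after their values were seen.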
